A study of Mus musculus with 24 samples.

Results

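Mitochondrial complex I (NADH:ubiquinone oxidoreductase) was examined at the level of its nuclear transcripts in mice that lack the mitoribosomal protein CRIF1 in hepatocytes. The genes are those whose symbol begins with Ndufa, Ndufb, Ndufc, Ndufs or Ndufv, which selected 45 of the 24532 genes in the deposited table. Of these 45 genes, 36 encode structural subunits, 7 encode the Ndufaf assembly factors, and Ndufa4 and Ndufa4l2 carry complex I names although Ndufa4 is now known as a complex IV subunit. Bulk RNA-seq libraries came from liver, inguinal white adipose tissue (iWAT), gastrocnemius muscle (GM) and hypothalamus of chow-fed C57BL/6 mice aged 8 weeks. Ctrl mice were Crif1flox/flox, and LKO mice were Alb-Cre;Crif1flox/flox, in which the albumin promoter drives Cre in hepatocytes. Both genotypes thus carry the floxed allele, and no Cre-only group was among the libraries. There were 3 Ctrl and 3 LKO libraries for each tissue, 24 in all. It is not given whether 1 mouse supplied all 4 tissues, or which mouse each replicate is, so p-values measure only the spread between these libraries.

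Complex I takes electrons from NADH, passes them along iron-sulfur clusters to ubiquinone and pumps protons across the inner membrane. Its peripheral arm is built from the N module, which binds NADH, and the Q module, which reduces ubiquinone. Its membrane arm has a proximal and a distal part, whose proton-pumping core subunits are translated inside mitochondria by the mitoribosome that contains CRIF1. The mitochondrially encoded subunits are not analysed here, so the values below concern only subunits made in the cytosol and imported, and the factors that help to put them together.

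Crif1 (listed as Gadd45gip1) followed the labels. Its liver level in FPKM (fragments mapped per kilobase, divided by library size) was 14.6, 12.5 and 13.6 in the Ctrl libraries against 5.40, 2.002 and 2.51 in the LKO libraries (log2 fold change -1.84 ± 0.27 SE, limma adjusted p = 0.00357). Ctrl and LKO libraries overlapped for this gene in iWAT, GM and hypothalamus. Depth ran from 4.45 to 8.09 gigabases per library. The FPKM files hold no read counts and so no counting interval is given. Hepatocyte markers summed to between 54217 and 57331 FPKM in Ctrl liver and between 41226 and 65279 in LKO liver, where 1 of the 6 markers, the cytochrome P450 gene Cyp2e1, was called lower (log2 fold change -1.5 ± 0.13 SE, limma adjusted p = 0.000837). The muscle, adipocyte and hypothalamic neuron lists were each highest in GM, iWAT and hypothalamus, respectively.

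In liver, complex I transcripts were nearly level between genotypes on the deposited scale while the typical gene was higher in LKO. The median log2 fold change of the 45 genes was 0.13, with 37 above 0, against a median of 0.33 over the 10956 genes tested. Only 3 of the 45 were called higher (Ndufa10, Ndufab1 and Ndufc1) and 0 lower by limma at an adjusted p under 0.05, whereas 38.3% of all genes tested were called higher and 5.49% lower. At an unadjusted p under 0.05, 7 were higher and 0 lower, against 48.9% and 7.02% of all genes. Groups did not overlap, with LKO above Ctrl, for 10 of the 45 genes against 53.0% of all genes, and with LKO below Ctrl for 1 (Ndufb3) against 8.1%. A limit of at least 1.5-fold beside the adjusted p left 0 of the 45, against 23.9% higher and 3.5% lower over all genes.

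Because so many liver genes were higher in LKO, the same libraries were also scaled by the median ratio of all genes, which moved the median of all genes from 0.33 to -0.01. On that scale the median of the 45 was -0.27 and 43 were below 0. There 9 were called lower and 0 higher, against 15.2% lower and 17.0% higher over all genes. The 9 were Ndufb3, Ndufb11, Ndufb5 and Ndufb2 of the distal membrane arm, Ndufa1 and Ndufa11 of the proximal arm, Ndufa2 of the N module, Ndufs7 of the Q module and the assembly factor Ndufaf6. Of these 9 only Ndufb3 was still called when Ctrl 1, Ctrl 2, Ctrl 3, LKO 2 or LKO 3 was left out. That left 1 call each time, against 6.48, 6.54, 5.48, 4.99 and 8.89% of all genes called lower. Without LKO 1 there were 22, against 24.5% of all genes called lower in that fit. Groups did not overlap, with LKO below Ctrl, for 31 of the 45 against 25.5% of all genes, and with LKO above Ctrl for 0 against 25.2%. The direction for the family in liver therefore turns with the scaling, and its median lay below that of all genes tested on both scales. Median-ratio scaling divides each library by 1 factor and so shifts all genes nearly alike. The gap on that scale is therefore no separate support for the gap on the deposited scale. With quantile normalization the family median did not lie below, at -0.02 for the family against -0.03 for all genes. The size factors behind this scaling were 0.892, 0.863 and 0.865 in Ctrl liver and 1.00, 1.16 and 1.31 in LKO liver. The 10 most abundant genes took 23.0, 24.3 and 24.5% of the summed FPKM in Ctrl and 22.5, 19.9 and 17.5% in LKO, and whether this share sets the shift was not tested.

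**Figure D1:**
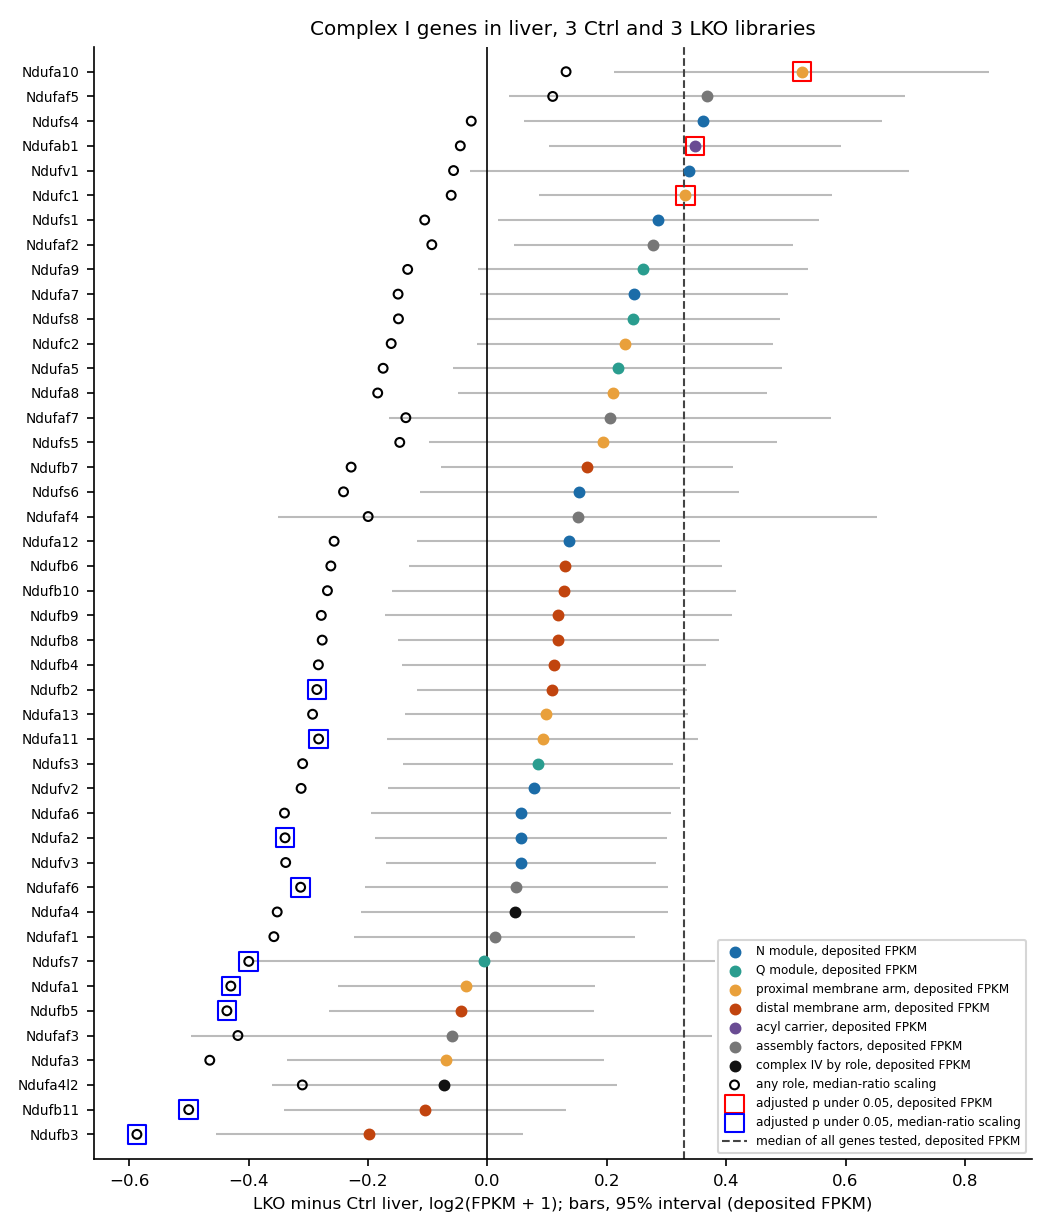
LKO minus Ctrl liver difference in log2(FPKM + 1) for 44 of the 45 genes, ordered by size. Filled points are deposited FPKM, coloured by role with the 95% interval, and open circles are the same genes after median-ratio scaling. The median over all 45 is 0.13 on the deposited scale, to the left of the dashed line at 0.33 that marks the median of all genes, and -0.27 after scaling. Red squares mark the 3 genes called higher and blue squares the 9 called lower.

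Ndufa10, an accessory subunit on the matrix face of the proximal membrane arm, had the largest positive difference on the log2(FPKM + 1) scale, while as a ratio of mean FPKM that of Ndufaf5 was slightly larger. Its liver FPKM was 94.5, 80.8 and 83.4 in Ctrl and 106, 134 and 136 in LKO. All 3 LKO libraries lay above all 3 Ctrl libraries, although LKO 1 lay well below LKO 2 and LKO 3. The log2 fold change was 0.53 ± 0.13 (SE), with a limma adjusted p of 0.0207. After median-ratio scaling it was 0.13 ± 0.09 (adjusted p = 0.313), and of the 45 genes only Ndufa10 and Ndufaf5 stayed above 0. Leaving out Ctrl 2, Ctrl 3, LKO 2 or LKO 3 ended its call on the deposited scale, with an adjusted p of up to 0.0894 over the 6 leave-outs.

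Ndufb3, an accessory subunit of the distal membrane arm, had the largest negative difference. Its liver FPKM was 51.4, 43.6 and 44.6 in Ctrl and 37.5, 42.9 and 40.8 in LKO. It was the only 1 of the 45 whose LKO libraries all lay below every Ctrl library, but Ctrl 2 and LKO 2 were close. The log2 fold change of -0.20 ± 0.11 (SE) did not pass the limma test (adjusted p = 0.169) on the deposited scale. After median-ratio scaling it was -0.59 ± 0.10 (adjusted p = 0.00935), and it was called lower there in all 6 fits that each left out 1 library, with adjusted p between 0.00423 and 0.041.

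To compare the genes with one another, each liver library was also centred on the median log2(FPKM + 1) of the 45 genes. Relative to that median Ndufa10 was higher by 0.32 ± 0.09 (SE, limma adjusted p = 0.0364) and Ndufb3 lower, at -0.40 ± 0.08 (adjusted p = 0.0144), and these were the only 2 of the 45 called, against 22.3% of all genes called higher and 8.63% lower. Groups did not overlap for 5 of the 45 upward (Ndufa10, Ndufab1, Ndufs4, Ndufc1 and Ndufs1) and for 13 downward, against 36.2% and 14.7% of all genes. Of the 13, 6 were distal arm subunits out of 10 in that arm. Without single libraries the call for Ndufa10 held only without LKO 1, and that for Ndufb3 only without LKO 1 or LKO 3, with values of 0.29 to 0.37 and of -0.43 to -0.36. The ratio of Ndufa10 to Ndufb3 FPKM, a pair chosen after their values were seen and described with no test, was 1.84, 1.85 and 1.87 in Ctrl liver and 2.81, 3.12 and 3.34 in LKO liver. The same ratio overlapped between genotypes in the other tissues, from 0.82 to 1.09 in iWAT, from 1.74 to 2.29 in GM and from 1.18 to 1.51 in hypothalamus.

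The start regions are shown for the highest and the lowest gene of this order, Ndufa10 and Ndufb3, and for Ndufc1 and Ndufab1, the other 2 called higher on the deposited scale. They run from 100 bases before to 30 bases after the RefSeq start on GRCm38.p6 (mm10), 5′ to 3′ on the strand of the gene, and capitals mark a match to 1 of 5 motifs searched on both strands. Ndufa10 lies at chr1:92473729-92473858 on the minus strand, Ndufc1 at chr3:51408926-51409055 on the minus strand, Ndufab1 at chr7:122101819-122101948 on the minus strand and Ndufb3 at chr1:58586297-58586426 on the plus strand.
Ndufa10: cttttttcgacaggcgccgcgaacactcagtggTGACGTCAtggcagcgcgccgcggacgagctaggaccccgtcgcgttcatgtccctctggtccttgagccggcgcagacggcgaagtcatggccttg
Ndufc1: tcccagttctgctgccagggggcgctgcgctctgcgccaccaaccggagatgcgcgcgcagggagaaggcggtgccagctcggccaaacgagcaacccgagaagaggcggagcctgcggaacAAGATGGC
Ndufab1: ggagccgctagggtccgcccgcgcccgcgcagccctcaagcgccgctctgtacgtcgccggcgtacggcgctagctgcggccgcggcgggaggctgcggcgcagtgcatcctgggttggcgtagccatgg
Ndufb3: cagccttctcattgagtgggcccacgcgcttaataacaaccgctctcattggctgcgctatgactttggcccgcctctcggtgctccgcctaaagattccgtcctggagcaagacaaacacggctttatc
The capitals in Ndufa10 are TGACGTCA, the palindromic cyclic AMP response element, and those in Ndufc1 are AAGATGGC, a YY1 core just after the start. In full RefSeq windows of 250 bases before to 50 after the start, TGACGTCA was found in 3 of the 39 genes of the family with a window (Ndufa10, Ndufa11 and Ndufb2) and in 1.79% of 32851 windows in all. AAGATGGC was found in 7 of the 39 (Ndufa3, Ndufa9, Ndufb8, Ndufc1, Ndufs4, Ndufs6 and Ndufs7) and in 2.75% of all windows. GCATGCGC, an NRF1 core, was found in 5 (Ndufa6, Ndufa8, Ndufa11, Ndufaf4 and Ndufaf5) and in 2.71% of all windows. CCGGAAG, an ETS core, was found in 5 (Ndufaf1, Ndufb6, Ndufb7, Ndufs3 and Ndufs8) and in 8.86%. TGATGCAA, a form of the element bound by ATF4, was found in 0 of the 39 and in 0.895% of all windows. Members with a given motif stood on both sides of the family median in liver, as Ndufa10 (0.53) and Ndufb2 (0.11) did for TGACGTCA, and a match describes these letters only.

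Ndufab1 is the mitochondrial acyl carrier protein, which sits in complex I and also serves mitochondrial fatty acid synthesis. Its liver FPKM was 66.5, 61.0 and 62.3 in Ctrl and 73.6, 83.2 and 86.1 in LKO, with no overlap. The log2 fold change was 0.35 ± 0.10 (SE, limma adjusted p = 0.0332). Ndufc1, a small membrane subunit of the proximal arm, stood at 60.1, 52.5 and 56.1 FPKM in Ctrl and at 65.8, 72.2 and 75.0 in LKO, also with no overlap. Its log2 fold change was 0.33 ± 0.10 (adjusted p = 0.0386). Both were close to the median of all genes, and after median-ratio scaling they stood at -0.05 and -0.06. Both lost their call without any 1 library other than LKO 1.

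**Figure D2:**
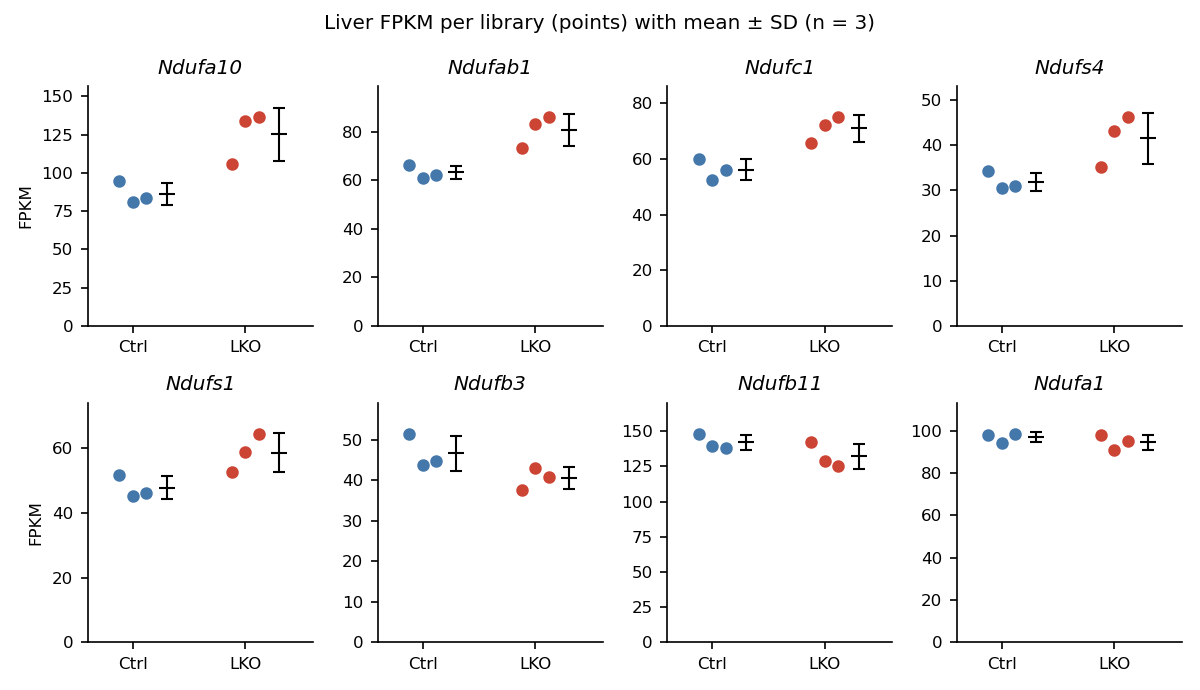
FPKM of 8 complex I genes in each liver library, with the y axis from 0; points are libraries in the order of their numbers, and black bars give the mean ± SD (n = 3). LKO points of Ndufa10, Ndufab1, Ndufc1, Ndufs4 and Ndufs1 all lie above their Ctrl points, those of Ndufb3 all lie below, and those of Ndufb11 and Ndufa1 overlap with Ctrl.

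The N module oxidises NADH. All 10 of its subunits had a positive liver difference on the deposited scale (median 0.15, from 0.06 to 0.36), and 0 of the 10 were called, against 38.3% higher and 5.49% lower over all genes. After median-ratio scaling all 10 were below 0 (median -0.25) and 1 was called lower, against 15.2% of all genes. Ndufs4, an accessory subunit whose loss in mice gives a Leigh-like encephalopathy, stood at 34.2, 30.6 and 30.9 FPKM in Ctrl and at 35.1, 43.2 and 46.1 in LKO. Its groups did not overlap, and its log2 fold change of 0.36 ± 0.13 (SE) missed the threshold (limma adjusted p = 0.0539). Ndufv1, which holds the flavin that takes electrons from NADH, stood at 0.34 ± 0.16 (adjusted p = 0.111), with LKO 1 (83.7 FPKM) inside the Ctrl range and LKO 3 (125 FPKM) well above it. Ndufs1, the iron-sulfur core subunit of the module, stood at 0.29 ± 0.11 (adjusted p = 0.0759) with no overlap, and Ndufv2, another iron-sulfur core subunit, at 0.08 ± 0.10. Ndufa6 was the most abundant N module subunit in Ctrl liver at 204 ± 15.9 FPKM (SD, n = 3) and stood at 211 ± 9.92 in LKO.

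The Q module carries electrons to ubiquinone. Its 6 subunits had a median of 0.18 and 0 were called on the deposited scale, where 38.3% of all genes were higher and 5.49% lower. After median-ratio scaling 1 (Ndufs7) was called lower, a share near the 15.2% of all genes. The core subunits Ndufs8 and Ndufs3 stood at 0.24 ± 0.10 and 0.09 ± 0.10 (SE). Ndufs7, which carries the last iron-sulfur cluster before ubiquinone, stood at 98.0, 77.6 and 84.8 FPKM in Ctrl and at 69.6, 89.3 and 103 in LKO, so that the LKO libraries ranged on both sides of Ctrl and the difference was -0.01 ± 0.16. Ndufa9, an accessory subunit near the ubiquinone site, stood at 78.2 ± 6.28 FPKM in Ctrl and at 94.0 ± 9.40 in LKO (SD, n = 3, limma adjusted p = 0.103).

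The proximal membrane arm spanned the widest range of the structural groups, from Ndufa3 at -0.07 ± 0.11 (SE) to Ndufa10 at 0.53, with a median of 0.19 over its 9 subunits and 2 called higher, against 38.3% of all genes. Ndufa1, a small subunit needed for assembly of the membrane arm, was level at 98.0, 94.2 and 98.5 FPKM in Ctrl and 97.9, 90.9 and 94.9 in LKO. In the distal membrane arm 7 of the 10 subunits lay between 0.11 and 0.17, and Ndufb5, Ndufb11 and Ndufb3 lay at -0.04, -0.10 and -0.20. After median-ratio scaling all 10 distal subunits were below 0 with no overlap between genotypes, and 4 were called lower, against 25.5% and 15.2% of all genes. Ndufb9 was the most abundant structural subunit of the family in Ctrl liver at 245 ± 23.8 FPKM (SD, n = 3) and stood at 266 ± 23.8 in LKO.

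Assembly factors act on intermediates and leave the finished enzyme. The 7 Ndufaf genes had Ctrl liver means from 1.5 to 13.2 FPKM, against 5.40 to 245 for the structural subunits. The 5.40 is that of Ndufs5, which needs care (below), and Ndufa11 was next at 15.8. On the deposited scale 0 of the 7 Ndufaf genes were called, against 38.3% higher and 5.49% lower over all genes. Ndufaf5, which modifies the Q module subunit Ndufs7, was the least abundant of the 45 in Ctrl liver, at 1.80, 1.25 and 1.45 FPKM in Ctrl and 1.90, 2.07 and 2.73 in LKO. Its groups did not overlap, but Ctrl 1 and LKO 1 differed little and the log2 fold change of 0.37 ± 0.14 (SE) missed the threshold (limma adjusted p = 0.0679). Ndufaf2, a relative of Ndufa12 that holds its place during assembly, stood at 12.3, 12.3 and 12.5 FPKM in Ctrl and at 16.1, 14.2 and 15.4 in LKO (0.28 ± 0.10, adjusted p = 0.0563). Ndufaf3, which works with Ndufaf4 on the Q module, stood at -0.06 ± 0.19 with a wide spread in Ctrl (12.1, 7.23 and 9.67 FPKM). Ndufa4 was the most abundant of all 45 at 503 ± 25.5 FPKM in Ctrl liver and 519 ± 23.1 in LKO (SD, n = 3), and its low-level relative Ndufa4l2, a hypoxia-responsive gene, stood at 1.55 ± 0.310 and 1.42 ± 0.152.

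Among 16 further genes known to act in complex I assembly whose symbols do not begin with Nduf, 15 were tested in liver, 5 rose and 1 fell on the deposited scale, where 38.3% of all genes tested were called higher and 5.49% lower. Chchd4, which folds cysteine-rich subunits imported into the intermembrane space, stood at 7.70, 7.31 and 7.28 FPKM in Ctrl and at 9.84, 18.6 and 26.1 in LKO. Its LKO libraries were all higher but differed widely among themselves (log2 fold change 1.09 ± 0.30 SE, limma adjusted p = 0.0268). Tmem70, which also serves ATP synthase assembly, rose from 19.8 ± 0.475 to 29.1 ± 3.74 FPKM (SD, n = 3, limma adjusted p = 0.0138). Nubp1, an iron-sulfur cluster assembly protein, and Acad9 and Tmem186, partners in the complex that assembles the membrane arm, rose by 0.52, 0.50 and 0.40 on the log2 scale. Atp5sl, a distal arm assembly factor, fell from 15.5, 14.4 and 16.2 FPKM in Ctrl to 12.2, 10.3 and 13.1 in LKO (limma adjusted p = 0.0489). After median-ratio scaling none of these 15 was called higher, against 17.0% of all genes. Atp5sl, Tmem126b, Ecsit and Foxred1 were called lower there, against 15.2% of all genes. Of these 4 genes Tmem126b and Ecsit are partners of Acad9.

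Some genes on the marker lists of other cell types also moved in LKO liver. Summed over 6 Kupffer cell markers, FPKM ranged from 97.7 to 101 in Ctrl and from 216 to 341 in LKO. All 6 were called higher, against 38.3% of all genes tested. The paper's cell sorting analysis of LKO liver pointed instead to fewer resident Kupffer cells, with more infiltrated monocytes. Over 7 monocyte and neutrophil markers the sum ranged from 3.10 to 3.30 in Ctrl and from 12.9 to 17.0 in LKO, with 3 of the 3 tested called higher. The adipocyte list summed to between 12.9 and 14.4 in Ctrl and between 33.4 and 35.6 in LKO. Of that list Fabp4 and Cidec were tested and called higher, while Adipoq, Plin1 and Lep were too low to be tested. In the mammary epithelium list the keratins Krt8 and Krt18 were called higher (list sums of 191 to 283 against 667 to 781), while its Krt14, Csn3 and Wap were listed at 0 in liver. The brown and beige adipocyte list summed to between 308 and 455 in Ctrl and between 15.8 and 39.6 in LKO, with Elovl3, a fatty acid elongase also made in liver, called lower (log2 fold change -3.92 ± 0.38 SE, limma adjusted p = 0.00103) and Ucp1 and Dio2 listed at 0. In bulk tissue a change in the number of cells of a type and a change in RNA per cell cannot be told apart, and the part of these cells in the liver values above was not tested.

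In iWAT, 0 of the 45 genes were called by limma, as was 0.0% of the 12288 genes tested, and the values leaned upward. The median log2 fold change of the 45 was 0.09, with 33 above 0, against a median of -0.01 over all genes. At an unadjusted p under 0.05, 2 were higher (Ndufs5 and Ndufa10) and 0 lower, while 7.42% of all genes were higher and 7.57% lower. Groups did not overlap upward for 2 (Ndufs5 and Ndufa1) and downward for 0, against 9.76% and 11.0% of all genes. Ndufa10 stood at 163, 129 and 125 FPKM in Ctrl and at 178, 162 and 168 in LKO (0.29 ± 0.12 SE, limma adjusted p = 0.315), with only Ctrl 1 inside the LKO range. Ctrl 1 was high throughout: it was the highest of the 6 libraries for 31 of the 45 genes, and the 45 summed to 6231 FPKM there against 5101 and 5025 in Ctrl 2 and Ctrl 3 and 5746 to 5902 in LKO. Without Ctrl 1 the median was 0.18 and 42 of the 45 were above 0, with 0 called, whereas without Ctrl 2 or Ctrl 3 it was 0.04 in each case, with 29 and 26 above 0.

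Of the other iWAT genes at the ends of the order, Ndufv1 stood at 0.24 ± 0.13 and Ndufa6 at 0.22 ± 0.10 (SE), while Ndufa4l2 stood at -0.13 ± 0.11, Ndufaf7 at -0.11 ± 0.12, Ndufa11 at -0.07 ± 0.12 and Ndufaf6 at -0.05 ± 0.15. Structural subunits were above 0 for 30 of 36 and assembly factors for 2 of 7. Summed brown and beige adipocyte markers were 555, 337 and 171 FPKM in Ctrl 1 to 3 and between 494 and 833 in LKO, so that Ctrl 1 stood apart in these markers too. The adipocyte list summed to 24569, 20903 and 21717 FPKM in Ctrl 1 to 3 and to between 25729 and 27052 in LKO. None of its 5 genes was called. Summed skeletal muscle markers were 447 in Ctrl 1 and 695 in LKO 2 against 28.0 to 82.7 in the other 4 libraries. The part of these markers in the complex I values was not tested.

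Ndufs5 needs care in every tissue. On the mm10 coordinates of the files, 5452 bases of its span are covered on the same strand by BC002163, which was read at 84.2 ± 4.89 FPKM in Ctrl liver against 5.40 ± 0.568 for Ndufs5 (SD, n = 3). Reads from the pair could be split either way by the counting, so the iWAT value of Ndufs5 (11.4, 9.53 and 9.29 FPKM in Ctrl, 14.0, 12.3 and 14.2 in LKO, limma adjusted p = 0.171) is uncertain. Ndufs1 and Ndufs7 share 14704 and 7341 bases with genes on the opposite strand (Ino80dos and Bc1) and Ndufb11 lies inside the listed spans of multi-copy genes, and the kit does not mark strand.

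In GM, 0 of the 45 genes were called by limma, as was 0.0% of the 10877 genes tested. The median log2 fold change was -0.04, with 34 below 0, against -0.03 over all genes. Leaving out 1 library gave medians from -0.08 (without Ctrl 3 or LKO 3) to -0.02 (without LKO 1, with 19 genes above 0), and with median-ratio scaling the median without LKO 1 was 0.07. At an unadjusted p under 0.05, 0 were higher and 2 lower (Ndufb4 and Ndufb5), against 3.05% and 3.78% of all genes. Groups did not overlap upward for 0 and downward for 5 (Ndufb4, Ndufb5, Ndufa8, Ndufaf6 and Ndufs4), against 4.38% and 7.2%. Ndufb4, a distal arm subunit, stood at 239, 242 and 238 FPKM in Ctrl and at 203, 224 and 205 in LKO (-0.19 ± 0.06 SE, limma adjusted p = 0.607). The 3 Ctrl libraries for Ndufb4 were very close, and every LKO library lay below them. Ndufa8, which has the cysteine-rich fold that Chchd4 oxidises, stood at -0.19 ± 0.09, Ndufaf6 at -0.17 ± 0.07 and Ndufs5 at -0.17 ± 0.11. At the upper end Ndufa4l2, Ndufa12, Ndufb3 and Ndufa3 stood at 0.09, 0.05, 0.05 and 0.03. After median-ratio scaling the median was -0.01 and no gene of the 45 had groups that did not overlap. The share over all genes was not worked out on that scale in GM, so this count has no background. LKO 1 had the lowest sum of the 45 (8065 FPKM) and the highest adipocyte marker sum (685 against 234 to 526 FPKM in the other 5). It also had the highest sums of the lymph node (21.0 against at most 4.84), monocyte and neutrophil (18.3 against at most 7.55) and Kupffer cell (6.00 against at most 2.56) lists, and the part of these cells was not tested.

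In hypothalamus, 0 of the 45 genes were called, against 0.0217% of the 13828 genes tested (3 genes by limma). The median log2 fold change was -0.09, with 41 below 0, against -0.01 over all genes. No gene of the 45 had an unadjusted p under 0.05 in either direction, where 1.65% of all genes were higher and 2.08% lower, and none had groups that did not overlap, where 4.74% and 4.97% of all genes did. Ndufb9, Ndufv3, Ndufb2 and Ndufs6 had the lowest values, at -0.20 ± 0.11, -0.19 ± 0.13, -0.18 ± 0.15 and -0.18 ± 0.13 (SE). Ndufs5, Ndufa10, Ndufaf7 and Ndufa6 had the highest, at 0.07 ± 0.20, 0.01 ± 0.06, 0.01 ± 0.07 and 0.00 ± 0.14. The spread within genotypes was wide: Ctrl 3 was the highest library for 37 of the 45 genes and LKO 2 the lowest for 38, with sums of 4685 and 3456 FPKM against 3780 to 4119 in the other 4. Without Ctrl 3 the median was -0.01 and 18 genes were above 0, and without LKO 2 it was -0.03 with 12 above 0. Leaving out any 1 of the other 4 libraries moved it the other way, to between -0.16 (without Ctrl 1) and -0.11 (without LKO 3), with 1 to 4 genes above 0. Summed pituitary markers were 50.8, 53.7 and 7.45 FPKM in Ctrl 1 to 3 and between 131 and 591 in LKO. Summed hepatocyte markers were 28.6 FPKM in Ctrl 3 against 4.05 to 7.42 in the other 5 libraries. The part of both lists in these values was not tested.

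**Figure D3:**
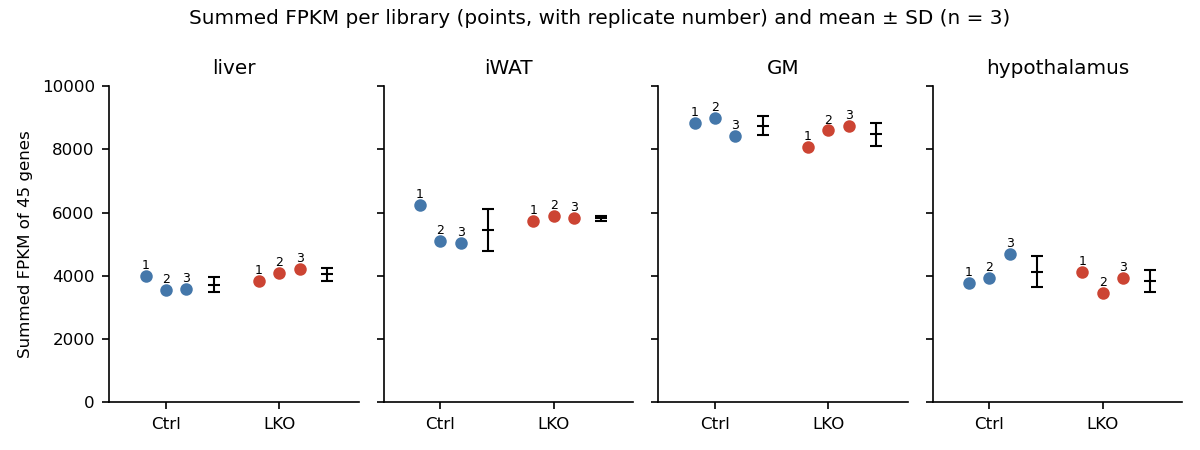
Summed FPKM of the 45 genes in each library by tissue and genotype, with the replicate number above each point and the mean ± SD (n = 3) beside each group. Genotypes overlap in all 4 tissues; Ctrl 1 in iWAT (6231) and Ctrl 3 (4685) and LKO 2 (3456) in hypothalamus stand away from the rest of their group, and GM is highest throughout at 8065 to 8991.

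Whether the LKO difference itself depended on the tissue was tested over all 24 libraries (limma F test over 3 interaction contrasts). Of the 45 genes 3 passed, against 33.5% of the 15794 genes tested. They were Ndufa10 (adjusted p = 0.0247), Ndufs4 (adjusted p = 0.0314) and Ndufab1 (adjusted p = 0.0357). For Ndufa10 the log2 fold change was 0.53 in liver, 0.29 in iWAT, 0.02 in muscle (GM) and 0.01 in hypothalamus. Those of Ndufs4 were 0.36, 0.09, -0.11 and -0.13, and those of Ndufab1 were 0.35, 0.13, -0.10 and -0.04. On this scale all 3 genes had their highest value in liver, and the test does not compare single pairs of tissues. With median-ratio scaling within each tissue, where the size factors came from among the 15794 genes of this fit and the liver values therefore differ from those above, none of the 3 passed (adjusted p of 0.518 for Ndufa10, 0.626 for Ndufs4 and 0.632 for Ndufab1) and each had its highest value in iWAT, at 0.29, 0.08 and 0.13 against 0.09, -0.07 and -0.09 in liver. There 4 of the 45 passed, against 22.4% of all genes, and they were Ndufb3 (adjusted p = 0.00654), Ndufb5 (adjusted p = 0.0301), Ndufa1 (adjusted p = 0.0464) and Ndufb11 (adjusted p = 0.0482), each lowest in liver, at -0.63, -0.48, -0.47 and -0.54. With quantile normalization Ndufb3, Ndufb5 and Ndufa10 passed, against 23.5% of all genes, so the genes that passed differed between the scalings. On the deposited scale Ndufaf2 (adjusted p = 0.0768) and Ndufaf5 (adjusted p = 0.0852) followed and did not pass. Leaving out Ctrl 2, Ctrl 3, LKO 2 or LKO 3 of liver left 0 calls, where 25.1, 24.6, 24.4 and 22.3% of all genes passed. Leaving out LKO 1 of liver or Ctrl 1 of iWAT gave 7 each, against 45.2% and 35.5% of all genes.

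**Figure D4:**
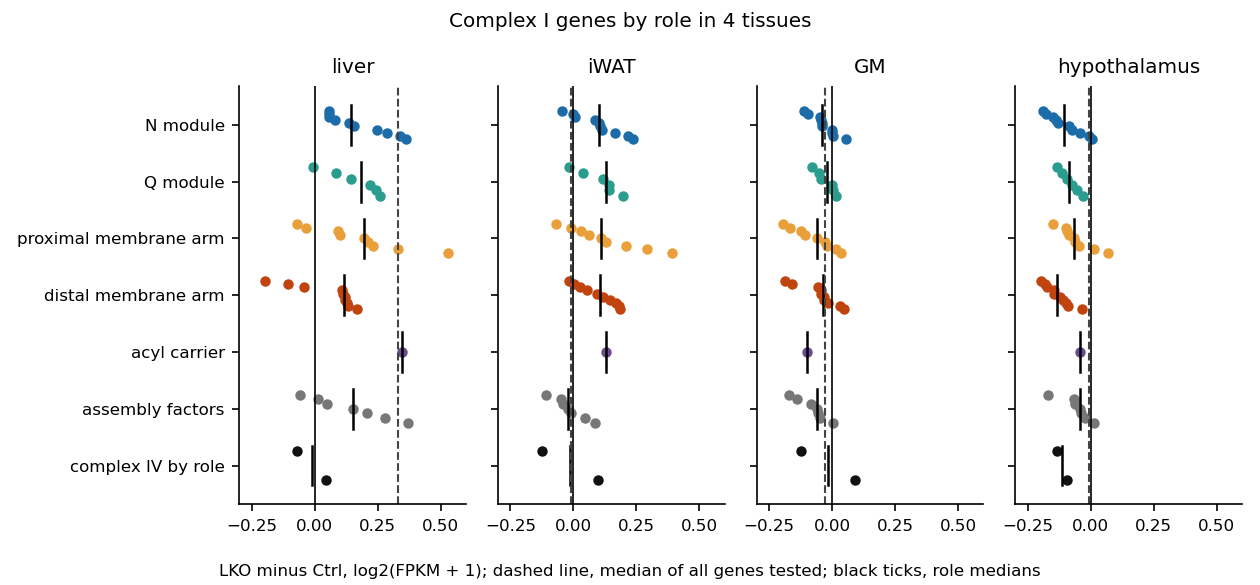
LKO minus Ctrl difference in log2(FPKM + 1) of each of the 45 genes, by tissue (panels) and role (rows); points are genes, black ticks are role medians and the dashed line is the median of all genes tested. In liver all role medians but that of the acyl carrier (0.35) lie left of the dashed line at 0.33; the family medians are 0.09 in iWAT, -0.04 in GM and -0.09 in hypothalamus.

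Levels of the same genes differed more between Ctrl tissues than between genotypes. GM was the highest tissue for 36 of the 45 genes, and for 34 of these 36 its 3 libraries lay above all libraries of the other tissues, against 11.9% and 9.22% of the 15320 genes tested. With median-ratio scaling of the 12 Ctrl libraries these counts were 42 and 40, against 23.0% and 17.9%. Liver was the lowest tissue for 31 on the deposited scale, against 49.9% of all genes, but for 4 after median-ratio scaling, against 32.6%. On the deposited scale the other genes were highest elsewhere, 5 in iWAT and 4 in hypothalamus. In limma over the 12 Ctrl libraries 43 of the 45 were called higher in GM than in liver and 1 lower, against 41.3% and 30.3% of the 15320 genes tested. The median log2 difference was 1.22 against 0.10 over all genes. All 36 structural subunits were higher in GM than in liver, by 0.54 to 2.41 on the log2 scale.

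Ndufc1 had the largest difference between GM and liver on the log2(FPKM + 1) scale, at 303 ± 27.9 FPKM in GM against 56.2 ± 3.81 in liver (SD, n = 3, log2 difference 2.41). The assembly factor Ndufaf5 followed at 10.6 ± 1.55 against 1.4999 ± 0.280 FPKM, and as a plain ratio of mean FPKM it was ahead, at 7.05-fold against 5.39-fold for Ndufc1. Ndufaf2 was the 1 gene lower in GM (9.69 ± 1.65 FPKM) than in liver (12.4 ± 0.134, limma adjusted p = 0.00727), and Ndufaf3 did not differ by the test (adjusted p = 0.247). Over roles, the median log2 difference between GM and liver was 0.51 for the 7 Ndufaf genes and 1.27 for the structural subunits.

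In iWAT 38 of the 45 were called higher than in liver and 3 lower, against 65.9% and 13.9% of all genes, and the median of 0.60 was that of all genes (0.61). In hypothalamus 26 were called higher and 6 lower, against 69.8% and 17.9%, with a median of 0.33 below that of all genes (0.98). After median-ratio scaling these counts turned to 4 higher and 29 lower in iWAT, against 35.8% and 34.5% of all genes, and to 3 higher and 39 lower in hypothalamus, against 46.5% and 37.8%. In GM they were 42 and 1, against 39.9% and 34.4%. Of the 3 comparisons only that of GM kept its direction on both the deposited and the median-ratio scale. With quantile normalization iWAT gave 31 higher and 5 lower, against 37.7% and 31.2% of all genes. Hypothalamus gave 18 and 11 there, against 41.2% and 43.2%, and GM 43 and 1, against 39.3% and 34.2%. On the deposited scale 4 structural subunits were highest in iWAT, of which Ndufb3 and Ndufv3 did not overlap with GM and Ndufa7 and Ndufc2 did. Ndufb3 had the largest gap (155 ± 9.64 FPKM against 97.4 ± 8.83 in GM and 46.6 ± 4.24 in liver, SD, n = 3). After median-ratio scaling all 4 were highest in GM, and Ndufb3 then overlapped between GM and iWAT.

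Ndufa4l2 was highest in iWAT as well on the deposited scale, at 12.6 ± 0.559 FPKM against 7.96 ± 0.750 in GM, 3.63 ± 0.971 in hypothalamus and 1.55 ± 0.310 in liver (SD, n = 3). After median-ratio scaling its mean was highest in GM, with GM and iWAT overlapping. Its paralog Ndufa4 had another order, at 806 ± 36.6 in GM, 503 ± 25.5 in liver, 502 ± 59.5 in iWAT and 334 ± 22.4 in hypothalamus, with liver and iWAT overlapping, whereas after scaling liver lay above iWAT with no overlap. The assembly factors varied one by one. Ndufaf3 was highest in hypothalamus at 30.5 ± 3.82 FPKM and lowest in liver at 9.67 ± 2.44. Ndufaf6 and Ndufaf4 were lowest in iWAT, at 4.83 ± 0.971 and 4.47 ± 0.370 against 9.44 ± 0.321 and 6.48 ± 0.378 in liver. Ndufaf1, the partner of Ecsit and Acad9, was lowest in hypothalamus at 8.34 ± 0.689 against 13.2 ± 0.893 in liver. Ndufaf5 was level between GM (10.6 ± 1.55) and hypothalamus (10.8 ± 0.758), whose libraries overlapped, and lowest in liver. After scaling its GM libraries lay above those of hypothalamus, and the highest and lowest tissues named here for the other assembly factors were the same.

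**Figure D5:**
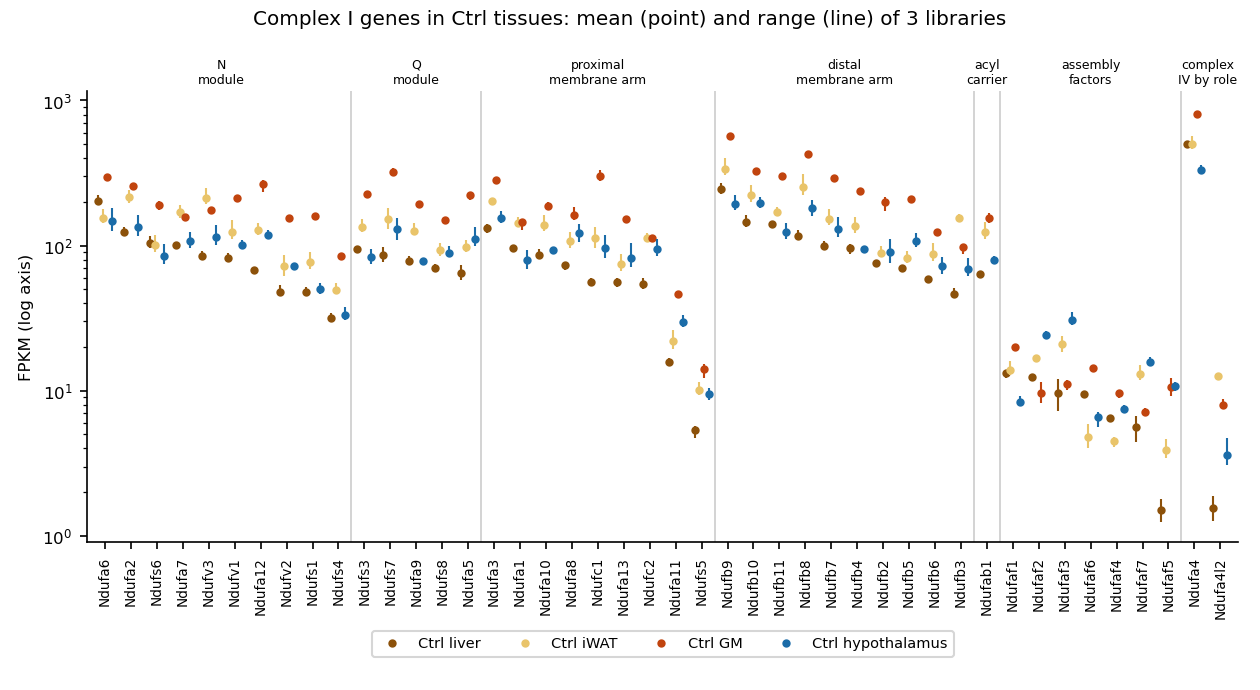
FPKM (log axis) of 44 of the 45 genes in the 12 Ctrl libraries, ordered by role and by liver level; points are means and lines the range of 3 libraries per tissue. Over all 45, GM is the highest tissue for 36 genes, and Ndufa4 has the highest level in every tissue.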

How the data were processed

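Bulk RNA-seq of 24 libraries (TruSeq RNA v2, paired ends, no strand marking) was used. The authors deposited FPKM per gene in 1 joined table, and per library a table with coverage, FPKM and TPM, on mm10; the submitters' processing notes name Trimmomatic 0.32, HISAT2 2.0.5, Bowtie2 2.2.6, STAR 2.5.2b and StringTie 1.3.3b without their roles. No rows of the mitochondrial chromosome were listed. FPKM are not counts, so log2(FPKM + 1) was tested per tissue with limma 3.58.1 (lmFit, eBayes with trend, R 4.3.3) for every gene that reached 1 FPKM in 3 or more of the 6 libraries. Calls used a threshold of 0.05 on p adjusted (Benjamini-Hochberg) across the genes tested in that tissue, and all 45 genes passed the filter in every tissue. Intervals are 95%. Fold changes are on the log2(FPKM + 1) scale and understate those of low genes. The deposited TPM served as an alternative. The deposited coverage was used only to compute depth. Same-numbered Ctrl and LKO libraries were taken as independent, since not every pair of a tissue deviated together, a check that cannot exclude pairing. The fits were tested on simulated data. Tables and figures were made with Python 3.11.15. Motifs were searched in RefSeq promoter windows (GRCm38.p6), found for 39 of the 45 genes.

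The genes named were, per tissue, those with the highest and lowest log2 fold changes (8 each in liver, 4 each elsewhere), the nuclear core subunits and Ndufa9, the 3 most and 3 least abundant in Ctrl liver, the 5 smallest interaction p and the 2 highest and 2 lowest in each Ctrl contrast. The values of 1 gene are counted in the sums and medians but are not reported here. The members and all lists were chosen with earlier results of these data known, so no count over a list is independent support. Other pseudocounts, filters, scalings, fits and leave-outs were tried, of which centring on the family median, leave-outs under other scalings and the scaled order of the Ctrl tissues were added after the data were seen.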

Additional observations from a re-analysis of the deposited data

Results flagged for a closer look

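The LKO difference differed between the 4 tissues by the limma interaction test for Ndufa10 (adjusted p = 0.0247), Ndufs4 (adjusted p = 0.0314) and Ndufab1 (adjusted p = 0.0357). On the deposited scale each had its highest log2 fold change in liver, at 0.53, 0.36 and 0.35, and lay between -0.13 and 0.02 in GM and hypothalamus. With median-ratio scaling none of the 3 passed (adjusted p of 0.518, 0.626 and 0.632 for Ndufa10, Ndufs4 and Ndufab1) and each was highest in iWAT. Groups of 3 libraries were too small for a test of single outlying libraries.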

How the results depend on the processing

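In liver the count called higher was 15 with deposited TPM (54.6% of all genes) and 10 with all 24 libraries in 1 fit (42.7%). It was 1 with quantile normalization (14.3%), ordinary variances (18.1%) or centring on the family median (22.3%). It was 0 with median-ratio scaling (17.0%), with a fold of at least 1.5 (23.9%), or with an unadjusted p and that fold (25.2%). The count called lower was 9, 3 and 1 with median-ratio scaling, quantile normalization and family-median centring (15.2, 15.8 and 8.63% of all genes). The liver median was 0.252 with TPM, -0.268 with median-ratio scaling, -0.0195 with quantile normalization and -0.0754 with family-median centring. That centring gave a GM median of 0.028. Leaving out 1 liver library, under any of 3 scalings, gave 0 to 13 higher, 0 to 22 lower and medians of -0.281 to 0.174, and both highest counts came without LKO 1 (58.9% of all genes higher on the deposited scale and 24.5% lower with median-ratio scaling). The interaction count was 14 with TPM (38.4% of all genes) and 0 to 7 without single libraries. The causes were not tested.

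Ctrl iWAT against Ctrl liver gave 4 higher and 29 lower with median-ratio scaling (35.8 and 34.5% of all genes). With quantile normalization it gave 31 higher and 5 lower (37.7 and 31.2% of all genes). Ctrl hypothalamus gave 3 higher and 39 lower with median-ratio scaling (46.5 and 37.8% of all genes). With quantile normalization it gave 18 higher and 11 lower (41.2 and 43.2%), and with TPM 38 higher and 0 lower (77.4 and 13.2%). Ctrl GM gave 44 higher and 0 lower with TPM (44.2 and 26.3% of all genes).

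Replicate numbers were shared between genotypes and were not taken to pair the libraries, since in each tissue at least 1 of the 3 correlations of deviations was under 0.1 (liver 0.154, 0.0276 and 0.0359; iWAT 0.302, -0.124 and 0.205; GM 0.354, 0.0499 and 0.163; hypothalamus -0.135, 0.14 and 0.0855). That rule cannot exclude pairing. With the replicate block, 1 of the 45 was called higher in liver, against 30.9% of all genes (38.3% without the block). No other count over the 45 within a tissue or between Ctrl tissues moved by over 1.5 times, and the 3 genes called over all genes in hypothalamus became 0. The interaction was not fitted with it.

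Some named genes changed sign. With median-ratio scaling in liver Ndufs4 stood at -0.027, Ndufab1 at -0.0454, Ndufv1 at -0.0566, Ndufc1 at -0.0606, Ndufs1 at -0.105, Ndufaf2 at -0.0931, Ndufs3 at -0.309, Ndufs8 at -0.149, Ndufv2 at -0.312, Ndufa9 at -0.134, Ndufa6 at -0.34, Ndufb9 at -0.278, Ndufa4 at -0.352 and Ndufs5 at -0.147. With quantile normalization Ndufaf5 stood at -0.042, Ndufaf2 at -0.102, Ndufv2 at -0.182, Ndufa6 at -0.0195, Ndufb9 at -0.011 and Ndufs5 at -0.193. With family-median centring Ndufs3 stood at -0.118, Ndufv2 at -0.125, Ndufa6 at -0.147, Ndufb9 at -0.0847, Ndufa4 at -0.158 and Ndufs5 at -0.00997. With TPM Ndufb11 stood at 0.0186, Ndufa4l2 at 0.00334, Ndufa3 at 0.0537, Ndufaf3 at 0.0562, Ndufb5 at 0.0793, Ndufa1 at 0.0879 and Ndufs7 at 0.118. Without single libraries, liver values ranged from -0.156 to 0.0181 for Ndufa4l2, -0.234 to 0.102 for Ndufaf3, -0.0767 to 0.000591 for Ndufb5 and -0.131 to 0.146 for Ndufs7. In iWAT they ranged from -0.155 to 0.0553 for Ndufa11 and -0.162 to 0.0805 for Ndufaf6, and in GM from -0.00764 to 0.172 for Ndufa4l2, -0.0288 to 0.104 for Ndufa12 and -0.0288 to 0.0876 for Ndufb3. In hypothalamus they ranged from -0.134 to 0.293 for Ndufs5, -0.0305 to 0.0544 for Ndufa10, -0.0386 to 0.059 for Ndufaf7 and -0.108 to 0.159 for Ndufa6. A pseudocount of 0.1 changed no call or sign of the 48 named values, and in the Ctrl comparisons the GM count called higher stayed between 42 and 44 in the fits with other scalings and TPM. FPKM without counts leaves the counting error of low genes such as Ndufaf5 unknown.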
